A study of Homo sapiens with 4 samples.

Results

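Transcripts of 9 genes of the PI3K, AKT and mTOR pathway were compared between naïve human ESCs grown in 2-D and in 3-D culture. The members were a list of names, PIK3CA, PIK3CB, PIK3CD, PDPK1, AKT1, AKT2, MTOR, RPTOR and RICTOR, matched through their Ensembl identifiers to GENCODE symbols, and they make up 9 of the 60564 genes in the count files. All 9 passed edgeR's filter on low counts, which kept 22555 genes for testing.

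Class I PI3K enzymes phosphorylate a membrane lipid when growth factor receptors, integrins or G protein-coupled receptors are activated. The lipid brings PDPK1 and the AKT kinases to the membrane, where PDPK1 and the mTOR complex that holds RICTOR phosphorylate AKT. AKT restrains GSK3, the FOXO factors and the TSC complex, and with TSC restrained the small GTPase RHEB switches on the other mTOR complex, which holds RPTOR and promotes translation. In pluripotent cells the pathway is known for supporting survival and self-renewal, and it acts mostly through phosphorylation, which RNA does not measure.

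All 4 libraries came from Elf1, a single naïve human ESC line derived from one embryo, and the labels name no altered gene. Both conditions used the same expansion medium, which contained the growth factor FGF2, the cytokine LIF, the GSK3 inhibitor CHIR99021 and a MEK inhibitor, so GSK3, a substrate of AKT, was inhibited in the controls as well. The line was otherwise kept on mouse embryonic feeder cells, per the study's methods. Per the labels, the 2-D cells were adherent on Matrigel-coated plastic, and the 3-D cells were encapsulated as single cells in self-assembling PEG-8-SH/PEG-8-Acr scaffolds and cultured there for 21 days without passage. Ribosomal RNA was depleted and the libraries were sequenced with paired ends. Each condition had 2 independent biological replicates of 1 cell line. The p-values of edgeR rest on the spread within these pairs of libraries, with each gene's spread moderated toward that of the other genes tested.

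Depth was higher in 2-D, with 33833778 and 30114220 counts, than in 3-D, with 21154409 and 18276147. Mitochondrially encoded genes took 5.30% and 5.10% of the counts in 2-D and 8.50% and 8.33% in 3-D, and their part in the results below was not tested except by leaving them out of the library sizes. Levels are given as normalized CPM, a gene's counts relative to the library's total after edgeR's TMM scaling. The markers were checked against the label. The core pluripotency genes were abundant, with a summed level of 3367 to 3492 normalized CPM over 6 genes. The 6 naïve markers summed to only 53.7 to 57.6 normalized CPM, with TFCP2L1 at 22.1 to 23.8, DNMT3L at 14.6 to 17.9, KLF4 at 9.26 to 10.4, DPPA3 at 5.75 to 7.43, KLF17 at 1.07 or less and DPPA5 at 0.130 or less. Of the primed markers, DUSP6 stood at 1.86 to 3.29, ZIC2 at 24.8 to 27.9, SALL2 at 139 to 162 and CD24 at 868 to 906 normalized CPM. The markers thus did not all follow the name naïve, which is kept here as the label. SFRP2, THY1 and SALL2 of the 7 primed markers were called higher in 3-D by edgeR's quasi-likelihood test, as were COL1A1 and COL3A1 of the 8 fibroblast genes, of which 6 were tested. Of all genes tested 7.9% were called, and 15.1% of those with at least 10 CPM. No other gene of these 2 lists was called. COL1A2, the most abundant fibroblast gene, measured 325 and 316 normalized CPM in 2-D and 301 and 325 in 3-D, and DCN, LUM and FAP stood at 0.948 or less. The lists summed to 1527 to 1613 and 459 to 510 normalized CPM, and the part of the called markers in the results on the members was not tested. The 6 endoderm and 6 trophoblast genes summed to at most 9.76 and 4.35 normalized CPM, with CGA at 0 in all libraries. The 6 mesoderm genes summed to 213 to 228 and the 6 neural ectoderm genes to 608 to 634 normalized CPM. Most of each sum came from a single gene, KDR at 147 to 157 and NES at 577 to 602. TBXT, MIXL1, EOMES and OTX2 stood at 10.8 to 34.9 normalized CPM, and NCAM1 and TUBB3 at 3.74 to 5.66. MESP1, HAND1, PAX6 and SOX1 stood at 1.28 or less, so the sums do not describe all genes of these lists. In bulk RNA, fewer cells with a transcript and less of it per cell cannot be told apart.

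Of the 3 catalytic subunits PIK3CB was called and the other two were not, and the bases just before their transcription start are shown for that reason, although no difference between the subunits was called by a test. They were taken from RefSeq on GRCh38.p14, up to 250 bases before the start nearest to the Ensembl canonical transcript, without bases that GENCODE places in an exon. Capitals mark matches, on either strand, to the GC box GGGCGG, and no other motif is marked. The PIK3CA stretch is chr3:179148220-179148356 on the plus strand, PIK3CB is chr3:138834929-138835178 on the minus strand, and PIK3CD is chr1:9651481-9651730 on the plus strand, within an intron of longer PIK3CD transcripts.
PIK3CA: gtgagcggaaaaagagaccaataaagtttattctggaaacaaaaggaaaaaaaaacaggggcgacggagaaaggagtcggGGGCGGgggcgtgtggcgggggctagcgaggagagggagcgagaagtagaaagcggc
PIK3CB: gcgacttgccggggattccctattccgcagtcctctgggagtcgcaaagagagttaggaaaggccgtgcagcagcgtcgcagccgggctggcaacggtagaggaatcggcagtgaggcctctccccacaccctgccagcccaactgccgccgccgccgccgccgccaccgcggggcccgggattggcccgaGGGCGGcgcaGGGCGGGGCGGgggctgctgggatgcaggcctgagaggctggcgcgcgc
PIK3CD: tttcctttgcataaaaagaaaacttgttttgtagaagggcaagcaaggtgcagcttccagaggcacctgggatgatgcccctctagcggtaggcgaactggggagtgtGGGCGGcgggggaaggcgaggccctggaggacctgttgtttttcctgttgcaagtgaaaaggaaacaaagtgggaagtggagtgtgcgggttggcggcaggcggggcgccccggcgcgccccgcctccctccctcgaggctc

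The PIK3CB stretch held 3 GC boxes, of which 2 overlap, 59, 49 and 44 bases before the start. PIK3CA held 1, 57 bases before the start, and PIK3CD held 1, 142 bases before it. At least 1 GC box was found in 42.5% of the 34943 RefSeq promoters in windows of 250 bases, so a match does not set these genes apart. Nor did the number of matches set PIK3CB apart from members without a call. In windows of 250 bases PDPK1 and AKT1 held 7 each, AKT2 and RICTOR 4 each, MTOR 1 and RPTOR 0. The forkhead motif TGTTTAC, which FOXO factors can bind, occurred in 2.98% of those promoters and, among the 9 members, in PIK3CA alone, 149 bases before the start and within a first exon of another PIK3CA transcript. The CCAAT box, spelled CCAAT, occurred in 32.0% of the promoters, and PIK3CA and PIK3CB held 1 each. With 250 bases for each gene, the GC content was 57.6% for PIK3CA, 72.8% for PIK3CB and 60.4% for PIK3CD, against a median of 58% over all promoters. Among the other members it was higher than in PIK3CB for AKT1 (83.2%), PDPK1 (81.6%) and RICTOR (76%). It was lower for AKT2 (66%), MTOR (55.6%) and RPTOR (47.2%). These matches describe letters and not binding.

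The catalytic subunits carry out the lipid phosphorylation, and PIK3CB was the one member with a call. PIK3CB, p110β, which is known for its activation by G protein-coupled receptors, fell in 3-D grown cells, and PIK3CD, p110δ, best known from leukocytes, had a lower estimate of similar size that did not pass the test. PIK3CA, p110α, the main subunit in signaling from insulin and growth factor receptors, stayed within the spread of the replicates. Across the 9 members, 1 gene (11.1%) was called, against 7.9% of the 22555 genes tested and 15.1% of the 10211 genes with a mean of at least 10 CPM, where all members lay. The share is within that range, so the count does not set the members apart from other genes. By direction, 1 member was called lower and 0 higher, against 3.36% and 4.54% of all genes tested.

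PIK3CB (ENSG00000051382, chr3:138652698-138834928) measured 88.0 and 87.7 normalized CPM in 2-D and 78.7 and 76.8 in 3-D. Both 3-D libraries lay below both 2-D libraries, and the means of 87.8 ± 0.168 and 77.7 ± 1.32 (SD, n = 2 each) differed by more than either spread. The level fell by 11.5%, a log2 fold change of 3-D over 2-D of -0.18 (standard error 0.03, 95% interval -0.25 to -0.10, quasi-likelihood test of edgeR, Benjamini-Hochberg over all genes tested, adjusted p = 0.00729). The call was not made by DESeq2 (adjusted p = 0.0861) and was lost in edgeR's test without 2-D replicate 1 (adjusted p = 0.0575) or without 2-D replicate 2 (adjusted p = 0.0711), while the estimate stayed between -0.24 and -0.16 in all alternatives and with each library left out.

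PIK3CD (ENSG00000171608, chr1:9629889-9729114) measured 31.7 and 31.0 normalized CPM in 2-D and 27.4 and 26.6 in 3-D. CLSTN1, on the opposite strand, overlaps 1.98% of the exon bases of PIK3CD and measured 158 to 174 normalized CPM, and its part was not tested. Both 3-D libraries of PIK3CD were again the lower ones. The means were 31.3 ± 0.466 and 27.0 ± 0.629 (SD, n = 2 each), and the log2 fold change of -0.21 (standard error 0.06, 95% interval -0.35 to -0.08) missed the threshold (quasi-likelihood test of edgeR, Benjamini-Hochberg adjusted p = 0.0590). It passed in 9 of 12 alternative analyses, among them gene length and GC offsets (-0.28, edgeR adjusted p = 0.0182) and scaling by library size alone (-0.28, edgeR adjusted p = 0.0146), but not in DESeq2 (adjusted p = 0.269). Without 3-D replicate 1 it passed as well (edgeR adjusted p = 0.0413).

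PIK3CA (ENSG00000121879, chr3:179148114-179240093) measured 38.7 and 41.6 normalized CPM in 2-D and 39.7 and 41.9 in 3-D. The libraries of the conditions overlapped. Its log2 fold change was 0.02 (standard error 0.06, quasi-likelihood test of edgeR, Benjamini-Hochberg adjusted p = 0.877). The 95% interval of -0.104 to 0.149 does not reach the estimates of PIK3CB and PIK3CD. It does overlap their 95% intervals, -0.250 to -0.102 and -0.351 to -0.0772. A part of PIK3CA, 29.6% of its transcript at 98.1% identity, has a copy at chr22:16575363-16578100, and 19.8% of its exon bases overlap KCNMB3 on the opposite strand, which measured 6.76 to 7.43 normalized CPM. Reads of such copies or antisense genes cannot be told apart where the counting setting is not known.

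Within each library the ratio of 2 subunits is free of the scaling between libraries. PIK3CB over PIK3CA was 2.27 and 2.11 in 2-D and 1.98 and 1.83 in 3-D, a log2 difference of -0.20 with no overlap. PIK3CD over PIK3CA was 0.818 and 0.745 in 2-D and 0.691 and 0.634 in 3-D, a log2 difference of -0.24, again with no overlap. PIK3CD over PIK3CB moved by only -0.04 on the log2 scale, from 0.360 and 0.353 to 0.349 and 0.346, also with no overlap. The exact two-sided permutation test gave p = 0.333 for each of the 3 ratios, the smallest value that 2 against 2 libraries allow, so none can reach a threshold of 0.05.

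**Figure D1:**
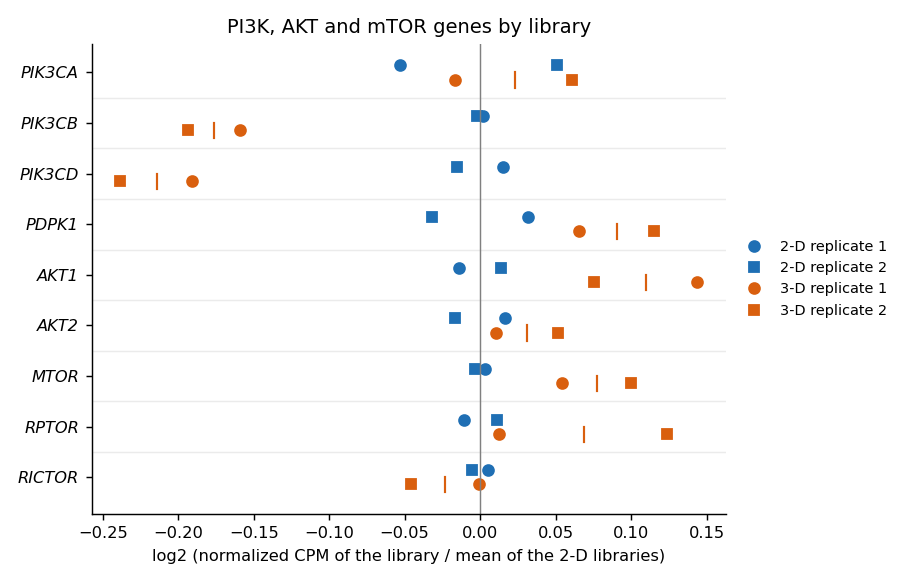
Each point is the log2 ratio of a library's normalized CPM to the mean of the 2-D libraries (x axis) for the 9 genes (y axis), with 2-D in blue, 3-D in orange, circles for replicate 1, squares for replicate 2 and an orange tick at the 3-D mean. PIK3CB and PIK3CD lie to the left in both 3-D libraries (PIK3CB at 78.7 and 76.8 against 88.0 and 87.7 normalized CPM), MTOR and AKT1 lie to the right, and PIK3CA, AKT2 and RICTOR overlap.

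PDPK1, AKT1 and AKT2 carry the signal from the lipid onward, and none of these kinases was called. PDPK1 (ENSG00000140992, chr16:2537979-2603188), the kinase of the AKT activation loop, measured 51.9 and 49.7 normalized CPM in 2-D and 53.1 and 55.0 in 3-D. Both 3-D libraries lay above both 2-D libraries. The log2 fold change was 0.09 (standard error 0.05, 95% interval -0.01 to 0.19, quasi-likelihood test of edgeR, Benjamini-Hochberg adjusted p = 0.293). PDPK1 has partial copies beside it on chromosome 16, of which the longest covers 55.2% of its transcript at 96.7% identity and another 16.9% at 98.7%. The pseudogene PDPK2P, which overlaps the shorter copy and not the longest, measured 3.66 and 3.57 normalized CPM in 2-D and 2.63 and 4.69 in 3-D, and added to PDPK1 it gave 55.5 and 53.2 against 55.8 and 59.7. An antisense RNA (ENSG00000261093) over 16.8% of the exon bases of PDPK1 measured at most 10.3 normalized CPM in 2-D and up to 11.1 in 3-D, and it was also higher in both 3-D libraries, and its part was not tested. The estimate of PDPK1 was 0.059 without 2-D replicate 2 and 0.025 when scaled by library size alone.

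AKT1 (ENSG00000142208, chr14:104769349-104795751) measured 81.8 and 83.4 normalized CPM in 2-D and 91.2 and 87.0 in 3-D. The 3-D libraries were the higher ones, with means of 82.6 ± 1.13 and 89.1 ± 2.98 (SD, n = 2 each). The log2 fold change was 0.11 (standard error 0.04, 95% interval 0.03 to 0.19), which did not pass (quasi-likelihood test of edgeR, Benjamini-Hochberg adjusted p = 0.0847). An antisense RNA (ENSG00000258430) over 6.05% of the exon bases of AKT1 measured 20.1 to 22.3 normalized CPM, and its part was not tested. The AKT1 estimate depended on the scaling and on 1 library. It was 0.04 with gene length and GC offsets and 0.05 when scaled by library size alone, and it was called only without 3-D replicate 2 (0.15, edgeR adjusted p = 0.0153).

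AKT2 (ENSG00000105221, chr19:40230317-40285536), the isoform tied most closely to insulin-stimulated glucose uptake, measured 97.0 and 94.8 normalized CPM in 2-D and 96.6 and 99.3 in 3-D. Its libraries overlapped, and the log2 fold change of 0.03 (standard error 0.03, 95% interval -0.04 to 0.10, quasi-likelihood test of edgeR, Benjamini-Hochberg adjusted p = 0.672) turned to -0.04 with the offsets and -0.03 with library size only. The ratio of AKT1 to AKT2 was 0.843 and 0.880 in 2-D and 0.945 and 0.876 in 3-D, so the conditions overlapped (exact two-sided permutation test, p = 0.667).

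MTOR (ENSG00000198793, chr1:11106535-11262556), the kinase shared by both complexes, measured 210.6 and 209.6 normalized CPM in 2-D and 218.2 and 225.2 in 3-D. Both 3-D libraries lay above both 2-D libraries. The difference was small, a log2 fold change of 0.08 (standard error 0.03, 95% interval 0.01 to 0.14, quasi-likelihood test of edgeR, Benjamini-Hochberg adjusted p = 0.162), and it was called only without 3-D replicate 1 (0.10, adjusted p = 0.0122). With library size only it was 0.01.

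RPTOR (ENSG00000141564, chr17:80544819-80966371), the scaffold that brings substrates to mTORC1, measured 39.6 and 40.2 normalized CPM in 2-D and 40.3 and 43.5 in 3-D. The lowest 3-D library exceeded the highest 2-D library only slightly. RICTOR (ENSG00000164327, chr5:38937920-39074402), the scaffold of mTORC2, measured 60.5 and 60.0 normalized CPM in 2-D and 60.2 and 58.3 in 3-D, with overlap. The log2 fold change was 0.07 for RPTOR (standard error 0.06, 95% interval -0.05 to 0.19, edgeR adjusted p = 0.555). Leaving out 3-D replicate 1 gave 0.12, leaving out 3-D replicate 2 gave 0.014, and scaling by library size alone gave 0.0037. For RICTOR it was -0.02 (standard error 0.04, 95% interval -0.11 to 0.06, edgeR adjusted p = 0.814). The ratio of RPTOR to RICTOR was 0.656 and 0.671 in 2-D and 0.669 and 0.746 in 3-D, and its conditions overlapped (exact two-sided permutation test, p = 0.667).

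With PIK3CB counted, 4 of the 9 members had an unadjusted p below 0.05 in edgeR's quasi-likelihood test, against 21.3% of all genes tested. Of these, AKT1 and MTOR had higher and PIK3CB and PIK3CD lower estimates. No member was called higher by edgeR's quasi-likelihood test, by its likelihood ratio test or by DESeq2. The libraries of the conditions did not overlap in 6 of the 9 members (66.7%), 4 higher and 2 lower. Of all genes tested, 50.5% did not overlap, 25.4% higher and 25.1% lower. The 21.3% and 50.5%, here and below, include genes under 10 CPM. Shares among genes with at least 10 CPM, where all members lay, were not computed. The median log2 fold change of the 9 was 0.03, close to the median of all genes tested, -0.00014. Scaling by library size alone moved the estimates of all 9 members down by a similar amount, as it moved the median of all genes, to -0.06. PIK3CB was at -0.24 and PIK3CD at -0.28 on that scale. The GC content of the canonical transcript was 35.7% for PIK3CA, 40.7% for PIK3CB and 57.4% for PIK3CD, and it was 61.2% for AKT1 and 58.0% for AKT2.

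**Figure D2:**
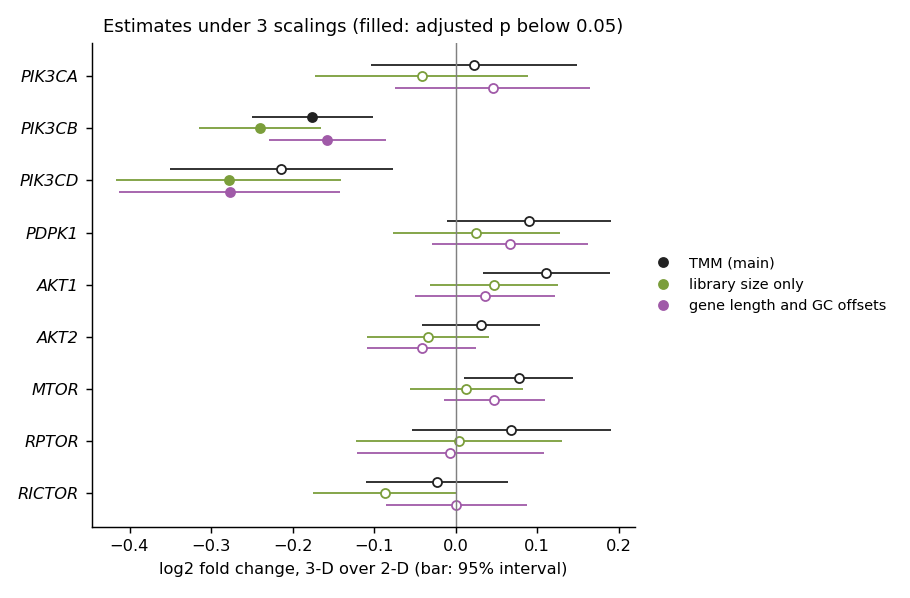
Log2 fold changes of 3-D over 2-D (x axis, bars are 95% intervals) for each of the 9 genes (y axis) with TMM scaling in black, library size only in green and gene length and GC offsets in purple, filled where the adjusted p is below 0.05. PIK3CB is filled under all 3, PIK3CD under 2 of them, and AKT1 moves from 0.11 to 0.05 and 0.04.

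Levels of different genes were compared per length, as FPKM from the TMM-scaled library sizes and the merged exons of each gene. MTOR had the highest FPKM of the 9 at 15.7 ± 0.0514 in 2-D and 16.6 ± 0.369 in 3-D (SD, n = 2 each). PIK3CB followed with 11.2 and 9.92, AKT1 with 7.54 and 8.14 and AKT2 with 6.03 and 6.16 as means in 2-D and 3-D. The next genes were PDPK1 with a mean FPKM of 4.65 and 4.96, RICTOR with 4.48 and 4.40 and RPTOR with 3.88 and 4.07. PIK3CD, with 3.27 and 2.82, and PIK3CA, with 2.34 and 2.37, were the lowest. The closest neighbours in 2-D were PDPK1 (4.55 to 4.76) and RICTOR (4.46 to 4.49), and no neighbours in this order overlapped within a condition, with 2 libraries each.

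Among the class I catalytic subunits, PIK3CB held 66.9% and 66.4% of the summed FPKM in 2-D and 66.0% and 65.3% in 3-D. With the length of the Ensembl canonical transcript it held 58.4% and 57.8% in 2-D and 57.3% and 56.5% in 3-D. PIK3CG, the fourth class I catalytic gene, had no counts in any library. The summed FPKM of the 3 measured subunits was 16.8 in both 2-D libraries and 15.2 and 15.0 in 3-D, whereas AKT1 and AKT2 summed to 13.6 in both 2-D libraries and to 14.4 and 14.2 in 3-D. For both sums the libraries of the conditions did not overlap, in opposite directions, and the exact two-sided permutation test gave its smallest possible p of 0.333. These sums hold for TMM scaling. The log2 fold changes of AKT1 and AKT2 were 0.047 and -0.034 with library size only, and 0.036 and -0.042 with gene length and GC offsets. The order depended on the length used. With the length of the Ensembl canonical transcript AKT1 came first, at 27.9 in 2-D and 30.1 in 3-D, followed by MTOR at 24.1 and 25.4, AKT2 at 18.3 and 18.7 and PIK3CB at 14.0 and 12.4, while the last 5 kept their order. On that length RPTOR (5.80 to 5.88) and PIK3CD (5.73 to 5.85) overlapped in 2-D, and RPTOR (5.89 to 6.36) and RICTOR (6.12 to 6.31) overlapped in 3-D.

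**Figure D3:**
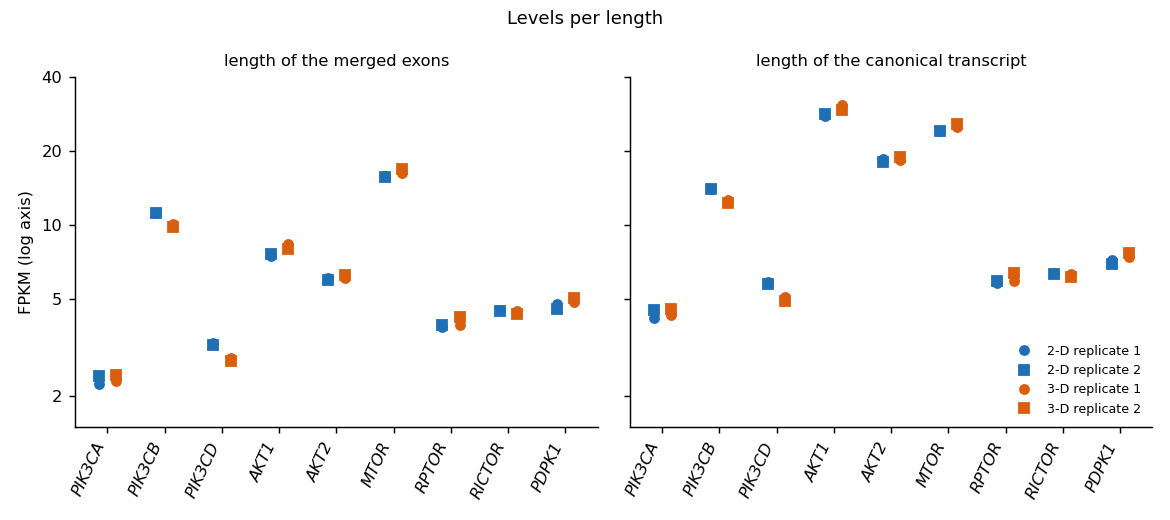
FPKM on a log axis (y) of the 9 genes (x) in the 4 libraries, with the length of the merged exons on the left and of the canonical transcript on the right, blue for 2-D and orange for 3-D. PIK3CA is the lowest gene in both panels, and the first place passes from MTOR (15.7 in 2-D) to AKT1 (27.9 in 2-D).

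The genes around the members in the pathway were taken from 9 lists with 129 genes, of which 122 were tested and 15 (12.3%) were called by the same test of edgeR, 7 higher and 8 lower in 3-D grown cells (4 and 15 when scaled by library size alone). The share lies between 7.9% of all genes tested and 15.1% of those with at least 10 CPM. The conditions did not overlap in 72 of the 122 (59.0%), against 50.5% of all genes tested, genes under 10 CPM included. The median log2 fold change was 0.0031. The genes called higher included the mTOR complex subunits MLST8 and MAPKAP1 and the translation regulators EIF4EBP1, LARP1 and EIF4G1, and 5 of the 8 called lower belonged to the list of lysosomal regulators of mTORC1.

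Of the 9 tested other mTOR complex subunits, 2 (22.2%) were called, both higher, against 4.54% of all genes tested called higher and 15.1% of those with at least 10 CPM called in either direction. MAPKAP1, the mTORC2 subunit SIN1, measured 93.6 and 94.5 normalized CPM in 2-D and 106.5 and 109.7 in 3-D, a log2 fold change of 0.20 (standard error 0.03, quasi-likelihood test of edgeR, Benjamini-Hochberg adjusted p = 0.00224). MLST8, which binds the mTOR kinase domain in both complexes, measured 21.5 and 23.3 normalized CPM in 2-D and 26.8 and 28.5 in 3-D. Its log2 fold change was 0.30 (standard error 0.07, edgeR adjusted p = 0.0212). In both genes each 3-D library lay above each 2-D library. MAPKAP1 was called with each library left out, and MLST8 was not called without 2-D replicate 1 (edgeR adjusted p = 0.157), by DESeq2 (adjusted p = 0.100) or when scaled by library size alone (0.24, edgeR adjusted p = 0.0578). The median of the list was 0.13.

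Among the 15 tested substrates of mTORC1 and mTORC2, EIF4EBP1 and LARP1 were called higher. The called share was 13.3%, against 7.9% of all genes tested and 15.1% of those with at least 10 CPM. EIF4EBP1, the translation repressor that mTORC1 phosphorylates, measured 42.5 and 42.7 normalized CPM in 2-D and 54.4 and 52.8 in 3-D. Its log2 fold change of 0.33 (standard error 0.05, quasi-likelihood test of edgeR, Benjamini-Hochberg adjusted p = 0.00104) was the largest in size among the 15 called pathway genes, and its call held in all alternatives and with each library left out. LARP1, which binds mRNAs of ribosomal proteins, had a log2 fold change of 0.12 (edgeR adjusted p = 0.0304), from 697.1 and 697.6 to 760.5 and 750.5 normalized CPM, and was not called without either 2-D library (adjusted p = 0.222 and 0.229), by the likelihood ratio test (adjusted p = 0.267) or when scaled by library size alone (0.051, adjusted p = 0.329).

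Of the 9 tested S6 kinase and cap-binding effectors, EIF4G1, the scaffold of the cap-binding complex, was called higher (log2 fold change 0.19, quasi-likelihood test of edgeR, Benjamini-Hochberg adjusted p = 0.00211), from 776.2 and 771.7 to 872.3 and 890.4 normalized CPM. RPS6, the ribosomal protein that S6 kinases phosphorylate, was called lower (log2 fold change -0.16, edgeR adjusted p = 0.0317), from 763.9 and 800.6 to 730.6 and 666.0 normalized CPM. These 2 calls made up 22.2% of the list, against 7.9% of all genes tested and 15.1% of those with at least 10 CPM. EIF4G1 was called with each library left out, and RPS6 was not called without 2-D replicate 2 (-0.13, edgeR adjusted p = 0.174) or by the likelihood ratio test (edgeR adjusted p = 0.136). Leaving out 3-D replicate 2 moved its estimate to -0.097, and leaving out 3-D replicate 1 moved it to -0.23. RPS6 is one of a gene family with many pseudogene copies, which were not searched here, and its count is therefore less certain.

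On the lysosome, 35 genes of the TSC complex, RHEB and amino acid sensing were tested and 5 (14.3%) were called, all lower, against 7.9% of all genes tested and 15.1% of those with at least 10 CPM, so the count does not set the list apart. Of the 35 estimates 23 (65.7%) were negative, against 50.0% of all genes tested, and the median was -0.04. TBC1D7, the third subunit of the TSC complex, measured 21.0 and 21.1 normalized CPM in 2-D and 17.5 and 16.2 in 3-D, a log2 fold change of -0.32 (standard error 0.08, quasi-likelihood test of edgeR, Benjamini-Hochberg adjusted p = 0.0214). FLCN, folliculin, which acts on the Rag GTPases, measured 32.6 and 31.7 in 2-D and 25.2 and 27.3 in 3-D (-0.29, standard error 0.07, edgeR adjusted p = 0.0172). LAMTOR1, the membrane anchor of the Ragulator complex, measured 39.5 and 37.9 in 2-D and 33.6 and 32.1 in 3-D (-0.24, standard error 0.06, edgeR adjusted p = 0.0294). The 3 genes had no overlap between conditions. SESN3, a sestrin, and ITFG2, a KICSTOR subunit, which both lie on the branch that inhibits mTORC1, had smaller log2 fold changes of -0.12 and -0.15 (edgeR adjusted p = 0.0301 and 0.0414). DESeq2 called none of the 35, the likelihood ratio test of edgeR called 1, FLCN, and 12 had an unadjusted p below 0.05 in the quasi-likelihood test, where 21.3% of all genes did. Without 2-D replicate 1 none of the 5 was called, without 2-D replicate 2 only FLCN was (edgeR adjusted p = 0.0342), and LAMTOR1 and ITFG2 were not called without 3-D replicate 2 (adjusted p = 0.0516 and 0.111).

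The direct partners of the members gave no further calls. TSC1 and TSC2, the core of the TSC complex, had log2 fold changes of 0.11 and 0.08 (quasi-likelihood test of edgeR, Benjamini-Hochberg adjusted p = 0.0907 and 0.285), and TSC2 was called only without 3-D replicate 1 (0.13, edgeR adjusted p = 0.0461). RHEB measured 65.9 and 64.1 normalized CPM in 2-D and 63.2 and 60.8 in 3-D, without overlap, with a log2 fold change of -0.07 (edgeR adjusted p = 0.365), and 65.7% of its transcript has a pair of copies on chromosome 10 at 99.0% and 99.1% identity. PIK3R1, the main regulatory subunit, measured 64.6 and 65.2 normalized CPM in 2-D and 62.3 and 63.9 in 3-D. Its log2 fold change was -0.04, and that of PIK3R3, another regulatory subunit, was -0.12 (edgeR adjusted p = 0.614 and 0.358). PIK3R2 was under the filter, with at most 0.290 normalized CPM, and 76.4% of its exon bases lie under another annotated gene on the same strand, so its level could not be read here.

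Of the 9 tested other PI3K subunits, PIK3R4, the regulatory partner of the class III enzyme in autophagy, was called lower (log2 fold change -0.13, quasi-likelihood test of edgeR, Benjamini-Hochberg adjusted p = 0.0368), and with each library left out its call held only without 3-D replicate 1 (edgeR adjusted p = 0.0391, otherwise 0.0610 to 0.380). It was not called by DESeq2 (adjusted p = 0.292), the likelihood ratio test (edgeR adjusted p = 0.180) or without legacy mode (edgeR adjusted p = 0.0668). PPP2R1A, the scaffold of the phosphatase PP2A that can act on AKT, was called lower among the 11 tested phosphatases, from 230.8 and 221.5 to 201.3 and 207.8 normalized CPM (-0.15, edgeR adjusted p = 0.0177), but not without 2-D replicate 1 (adjusted p = 0.253) or by the likelihood ratio test (adjusted p = 0.100). Of the 13 tested AKT substrates, GSK3A (0.26, edgeR adjusted p = 0.0121) and WNK1 (0.16, edgeR adjusted p = 0.00444) were called higher. The called share was 11.1% of the other PI3K subunits, 9.09% of the phosphatases and 15.4% of the AKT substrates. These shares compare with 7.9% of all genes tested and 15.1% of those with at least 10 CPM. GSK3A measured 38.7 and 36.7 normalized CPM in 2-D and 44.2 and 46.1 in 3-D, and it was not called without 2-D replicate 2 (edgeR adjusted p = 0.115) or by DESeq2 (adjusted p = 0.0605). WNK1 measured 384.9 and 388.4 in 2-D and 430.8 and 435.9 in 3-D, and it missed the threshold in edgeR without 2-D replicate 1 (adjusted p = 0.0542) and when scaled by library size alone (0.10, adjusted p = 0.0540).

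The 15 insulin and growth factor receptors and adaptors had 14 positive estimates, with a median log2 fold change of 0.06, against 50.0% positive and a median of -0.00014 in all genes tested. When scaled by library size alone, 7 of the 15 were positive, against 35.9% of all genes, and the medians were -0.0060 and -0.06. None was called by edgeR's quasi-likelihood test, its likelihood ratio test or DESeq2, and 4 had an unadjusted p below 0.05 in the first, where 21.3% of all genes did. The 14 FOXO target genes had a median of -0.04, with SESN3 as the 1 call, a gene that the lysosomal list also holds. Their called share was 7.14%, against 7.9% of all genes tested and 15.1% of those with at least 10 CPM. The largest estimates in other lists belonged to genes of low level, PIK3IP1 (-0.33), PDGFRA (0.30), PPP2R5B (-0.51), KICS2 (-0.35) and TFEB (-0.36), none of them called (quasi-likelihood test of edgeR, Benjamini-Hochberg adjusted p from 0.0978 to 0.662). With a library left out PIK3IP1 ranged from -0.68 to -0.077, TFEB from -0.55 to -0.18 and PDGFRA from -0.023 to 0.60, and PPP2R5B was called only with a replicate block and offsets together (edgeR adjusted p = 0.0473). When gene length and GC content were taken into the offsets, 6 of the 7 genes called higher and 7 of the 8 called lower were still called, without LARP1 and SESN3. The GC content of the transcript ran from 49.7% to 63.0% in the 7 and from 37.1% to 56.1% in the 8.

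**Figure D4:**
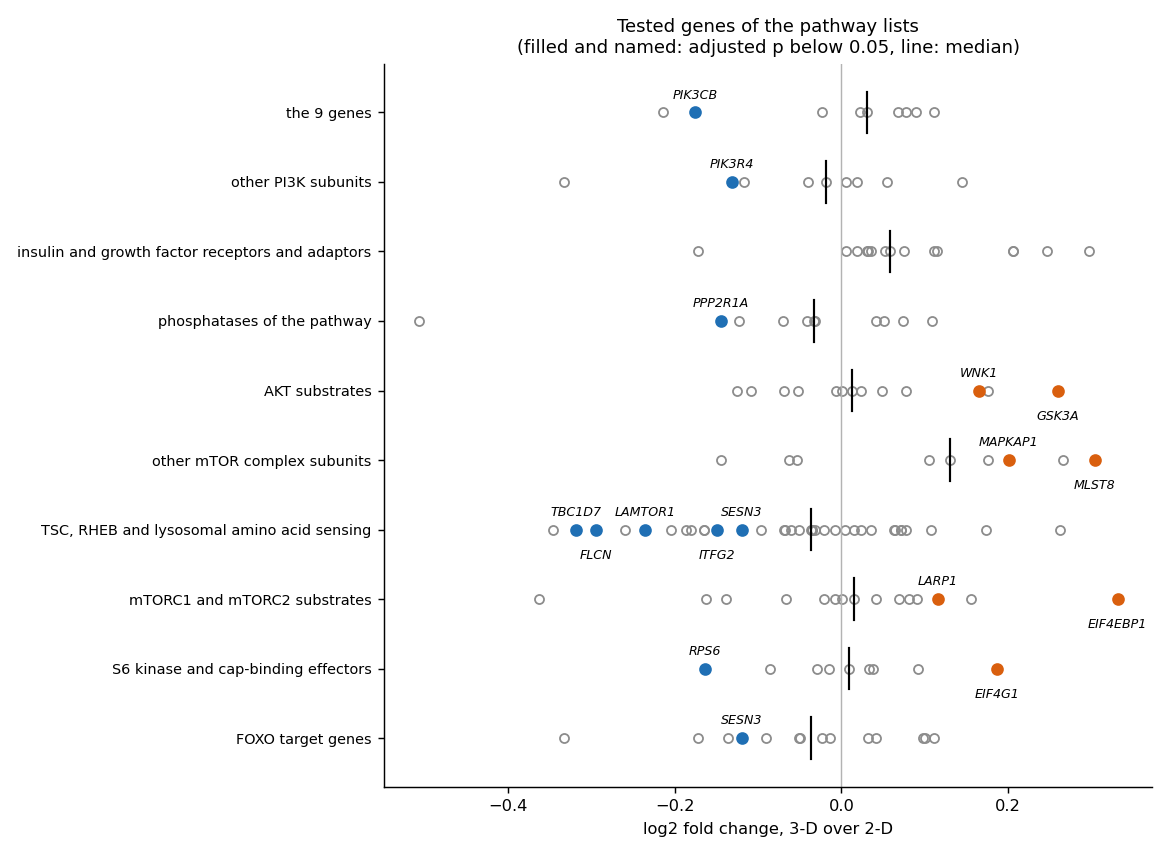
Log2 fold changes of 3-D over 2-D (x axis) of the tested genes in each list (y axis), filled and named where the adjusted p is below 0.05, orange for higher and blue for lower in 3-D, with a black line at the list's median. The 5 named genes on the lysosomal list lie to the left, MAPKAP1 (0.20) and MLST8 (0.30) lie to the right, and SESN3 and other genes that belong to several lists are drawn in each.

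For each member, the pathway gene with the most similar profile was sought among 114 genes with a mean of at least 10 CPM, by the root mean square difference of the log2 normalized CPM centred on each gene's mean over the 4 libraries. PIK3CB was nearest to ITFG2 at 0.0157 and PIK3CD to LAMTOR1 at 0.0167, and both partners were among the genes called lower. AKT1 was nearest to LARP1 at 0.0200 and MTOR to TFE3, a transcription factor that mTORC1 keeps in the cytoplasm, at 0.0142. The closest pair was RPTOR and DEPDC5, a GATOR1 subunit, at 0.00302. AKT2 was nearest to IGF1R at 0.0106, RICTOR to SGK1, an mTORC2 substrate, at 0.0123, PDPK1 to ERBB2 at 0.0163 and PIK3CA to LAMTOR3 at 0.0238. These differences rest on 4 libraries in 2 conditions and are a description only.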

How the data were processed

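Counts per gene were deposited by the authors for each of the 4 libraries, as whole numbers without normalization and without pooling of replicates. Per the labels' processing notes and the methods, reads were trimmed with Trim Galore 0.6.3, mapped to hg38 with HISAT2 2.1.0 and counted with featureCounts 1.6.4 on GENCODE release 30. The strand and multi-mapping settings of the counting are not given in the sources used here. A second deposited table, with counts divided by DESeq2 2.11.40.6 size factors and the authors' own means, fold changes, Wald statistics and p-values, was not used.

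Symbols, positions and lengths came from GENCODE release 44 on hg38, which matched 60295 of 60564 identifiers, and the other 269 held 0.122% of the counts. Counts were tested with edgeR 4.0.16 in R 4.3.3 (TMM, its filter on low counts, quasi-likelihood test in legacy mode, condition alone, Benjamini-Hochberg adjustment over 22555 genes, calls at an adjusted p below 0.05). The standard error is the log2 fold change over the square root of F. Alternatives were edgeR's RLE scaling, scaling by library size alone or without mitochondrially encoded genes, DESeq2 1.42.0, the likelihood ratio test, no legacy mode, a filter of 10 counts in each library or none, gene length and GC offsets (splines, 5 degrees of freedom), a replicate block with and without them, and each library left out.

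The biological coefficient of variation was 5.10%. Replicates differed by more than sampling noise (chi-square over its degrees of freedom 3.69 in 2-D and 7.26 in 3-D, genes with at least 10 CPM). Named genes were the members, 8 direct partners (PIK3R1, PIK3R2, PIK3R3, MLST8, MAPKAP1, TSC1, TSC2 and RHEB), every called list gene, and the largest estimate of each list among genes with a mean of at least 1 CPM. Members and lists were chosen with earlier results of these data known, and some listed genes are not reported here. Copies of the members and direct partners were sought with minimap2 2.31-r1302 (at least 300 matching bases, 95% identity). Procedures were tested on simulated data with 200 changed genes, where the share of false calls was above the nominal 0.05. The share of false calls in these data is not known. Tables and figures used Python 3.11.15, pandas 2.3.3, numpy 2.4.6, scipy 1.17.1 and matplotlib 3.10.9.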

Additional observations from a re-analysis of the deposited data

How the results depend on the processing

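Of the 9 members, 1 was called lower. The count was 2 (PIK3CB and PIK3CD) with library size only, without mitochondrially encoded genes, without legacy mode, with no filter, with at least 10 counts in every library and with the offsets for gene length and GC content, and 0 with DESeq2. It ranged from 0 to 2 with each library left out, and the number called higher from 0 to 1. A lone library was then assumed to vary like the other condition. The deviations of same-numbered libraries correlated at -0.127, so no shared deviation was seen. With 2 libraries per condition this cannot tell whether they were paired, which the sample titles do not state. A replicate block, a crossed replicate block (chosen after seeing the data) and the block with offsets each gave 2 members lower, the block and its crossed form kept 8 other pathway genes lower, and they called 2167 and 2212 of all genes in place of 1782.

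The other pathway genes called higher, 7, were 4 with library size only and 5 to 14 with a library left out. Those called lower, 8, were 15 with library size only, 2 with DESeq2, 1 with the likelihood ratio test, 5 without legacy mode and 1 to 10 with a library left out. Library size only called 514 of all genes higher and 1879 lower, against 1024 and 758. DESeq2 called 795 genes, the likelihood ratio test 1139, and the 4 fits with a library left out 974 to 2643. The causes were not tested.

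With library size only, the log2 fold change of PIK3CA was -0.042 and that of AKT2 was -0.034. With the offsets AKT2 was at -0.042, RPTOR at -0.0065, TSC2 at -0.0036 and RICTOR at 0.00047, and with block and offsets they were at -0.042, -0.0068, -0.0037 and 0.00023. With a library left out, PIK3CA ranged from -0.030 to 0.075, RICTOR from -0.045 to 0.00055 and PDGFRA from -0.023 to 0.60.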
